A study of Homo sapiens with 12 samples.

Results

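SB590885 blocks Raf kinases and PD325901 blocks MEK, and the response they had in common was read in INA-6 cells, a line from a human myeloma that needs interleukin-6 to grow. For each replicate number, the mean of the SB590885 array and the PD325901 array was taken, and the DMSO array of that number was subtracted from it. This gave 4 paired differences for each gene on the log2 scale. The common response was then read among the genes whose mean change had 1 sign for both inhibitors. Of 19775 genes measured, 12936 met this rule, 6528 with a higher and 6408 with a lower mean under both inhibitors, and the other 6839 moved in opposite directions. The signs define the set and are not a finding, since both inhibitors were compared with the same 4 DMSO arrays.

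All 3 groups grew in RPMI1640 supplemented with interleukin-6 at 2 ng/ml and 10% fetal calf serum, so the controls also received the cytokine. They were given DMSO as solvent, SB590885, which the labels call B-Raf-inhibited, or PD325901, called MEK1-inhibited. Each group had 4 arrays, from 100 ng of RNA each, on the Affymetrix HG-U133 Plus 2.0 platform. INA-6 is 1 cell line, so every p-value describes the spread between arrays of that line. The sources used here give neither doses nor treatment times, and the inhibitors could not be set against each other at matched doses. In the descriptions, replicates 3 and 4 are called 1R and 2R, and what the R stands for is not stated. Whether they are new cultures or repeats of the first pair is therefore not known.

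Raf kinases phosphorylate and activate MEK, and MEK phosphorylates and activates ERK. Active ERK switches on ETS-family transcription factors and a set of feedback genes, among them dual-specificity phosphatases and Sprouty or SPRED proteins, which restrain the same cascade. In myeloma the cascade is often driven by RAS or RAF mutations and by growth factors such as interleukin-6. ERK signalling also promotes ribosome production and entry into the cell cycle, and it marks the pro-apoptotic protein BIM, the product of BCL2L11, for degradation.

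All 6 plasma cell markers examined (SDC1, CD38, TNFRSF17, PRDM1, IRF4 and XBP1) lay above the median of all probe sets on all 12 arrays. Defining markers of other cells (CD3G, NKG7, MS4A1, CD14, LYZ, FCN1, CDH5 and COL1A2) lay below it on all 12, PAX5, PECAM1, HBB and COL1A1 lay above it on all 12, and 6 others lay above it on some. The SD over probe sets was 1.38 to 1.45 on the arrays with the R and 1.52 to 1.55 on those without it. Arrays of 1 replicate number deviated together from their group means (r = 0.544 to 0.913 over genes for 12 pairs). For arrays of different numbers r was 0.123 to 0.646 where the R status was shared and -0.718 to -0.443 where it was not, and centring on a mean of 4 arrays by itself makes such values partly negative. The paired differences remove such shared shifts. Arrays of 1 number also share the R status, so differences between numbers were compared within it (replicates 2 and 1, then 4 and 3). For DMSO and PD325901 r was 0.86 and 0.35. It was 0.21 and 0.07 for SB590885 and DMSO, and 0.19 and 0.10 for SB590885 and PD325901. Pairing of the SB590885 arrays within 1 R status is thus weakly supported. Replicate 2 stood apart in 1 respect: the median of 35 interferon response genes was 11.20 on its DMSO array and 10.91 on its PD325901 array, against 7.24 to 7.68 on the arrays of the other replicates and 8.12 on its SB590885 array. The signal of 3′ over 5′ probe sets of GAPDH, a measure of RNA integrity, was higher under the inhibitors by a mean of 0.06 on the log2 scale (SD 0.05, 4 of 4 differences), and its part in the results was not tested.

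In the paired comparison 3478 genes (17.6%) passed an adjusted p of 0.05 in limma, 1199 (6.06%) higher and 2279 (11.5%) lower with the inhibitors. With 1 sign for both inhibitors there were 959 rises (4.85%) and 2172 falls (11.0%), and these 3131 genes are the ones said to have risen or fallen below. Counts of rises and falls within gene lists are to be read against these shares. The other 347 passed in the pooled fit although the inhibitors had opposite signs, 234 of them higher with SB590885 and 113 higher with PD325901. Each SE given is limma's moderated value, which borrows from the spread of all genes. It can understate the scatter of a gene's own 4 differences. Most common changes were small. Both inhibitors moved a gene by at least 0.25 on the log2 scale in 54 rises and 314 falls, by at least 0.5 in 9 rises and 37 falls, and by at least 1 in 0 rises and 4 falls. The 4 were CCL2, CD48, ETV5 and STS. In 1006 of the 3131 genes the smaller of the changes was under 0.1.

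The count depends on the pairing. When the 12 arrays were fitted without replicate numbers, 206 genes (1.04%) passed, 44 higher and 162 lower, and all 206 were among the paired calls. Of the paired calls, 54 rises and 210 falls had DMSO arrays that did not overlap any of the 8 inhibitor arrays, compared with 285 (1.44%) over all genes. The balance of directions moved with the scaling. Rises made up 34.5% of the calls on the deposited scale, 25.3% when each array was centred on its median (923 higher, 2729 lower) and 52.5% after a further quantile normalisation (1758 higher, 1588 lower).

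**Figure D1:**
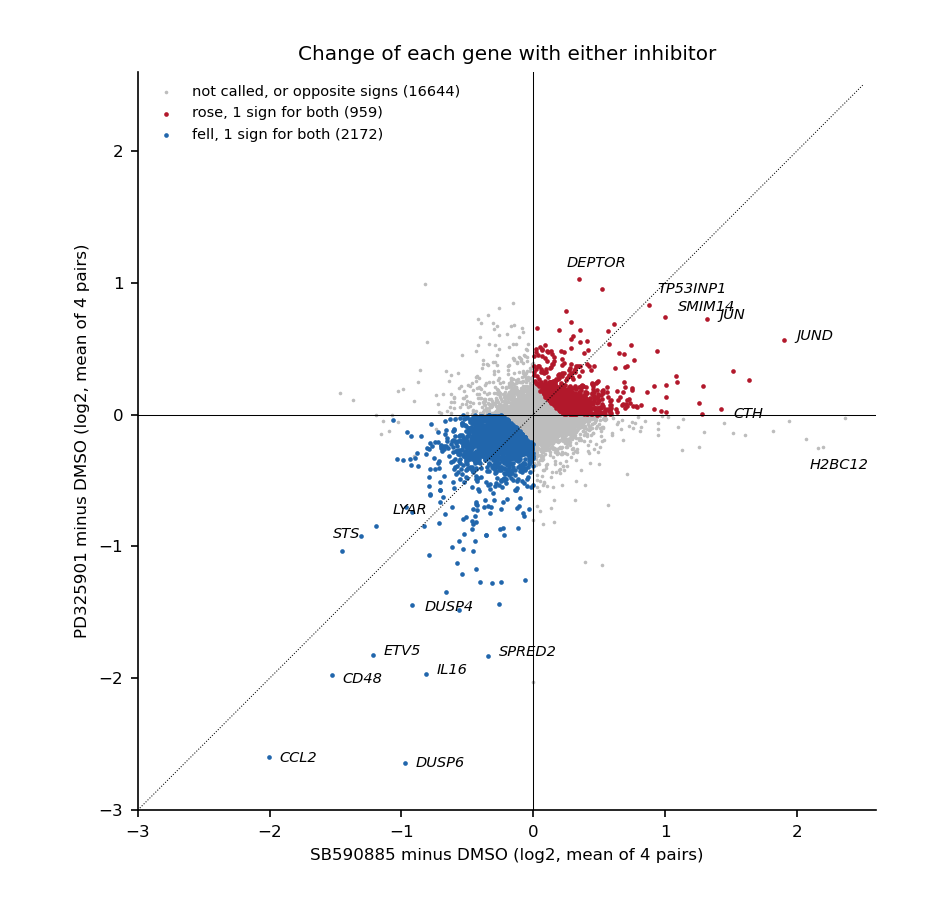
Mean log2 change of each of 19775 genes with SB590885 (horizontal) and PD325901 (vertical), each against the same 4 DMSO arrays, with the dotted line marking equal changes. Blue points are the 2172 falls and red points the 959 rises of 1 sign; CCL2, CD48, ETV5 and DUSP6 lie farthest out among the falls, and JUND lies farthest right among the rises, while H2BC12 is a grey point of opposite signs.

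Of 10 genes listed as transcriptional output of ERK, DUSP6, ETV5 and DUSP4 fell with both inhibitors and 7 did not pass. DUSP6, the phosphatase that inactivates ERK itself, read 9.79, 9.89, 9.48 and 9.31 in DMSO, 8.52, 8.79, 8.79 and 8.47 with SB590885, and 7.07, 7.21, 6.63 and 6.98 with PD325901. All 8 inhibitor arrays lay below all 4 DMSO arrays, and the PD325901 arrays lay below those of SB590885. The pooled change of DUSP6 was -1.81 (SE 0.06, limma adjusted p = 4.7e-10), which leaves 28.6% of the DMSO signal. DUSP4, a nuclear phosphatase of ERK, read 10.57, 10.53, 10.49 and 10.69 in DMSO, 9.38, 9.37, 10.26 and 9.60 with SB590885 and 9.15, 9.20, 9.09 and 9.07 with PD325901. The groups did not overlap, although replicate 3 with SB590885 stayed close to DMSO, and the pooled change was -1.18 (SE 0.07, adjusted p = 2.2e-07).

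ETV5, an ETS factor of the PEA3 family, is induced by ERK. Its values were 8.68, 8.79, 8.58 and 8.87 in DMSO, 7.55, 7.50, 7.58 and 7.43 with SB590885 and 6.70, 6.99, 6.99 and 6.94 with PD325901. The 3 groups formed 3 separate bands. The pooled change of ETV5 was -1.52 (SE 0.05, adjusted p = 1.7e-09). With PD325901 the means of CCL2 (6.60), ETV5 (6.91) and DUSP6 (6.97) lay near or below the median of all probe sets (6.92), and whether background signal limits the size of these falls was not tested. The 7 output genes that did not pass were close to 0 (ETV4 -0.11, PHLDA1 0.10, SPRY2 -0.07, SPRY4 0.01, CCND1 -0.08, EPHA2 0.04 and EPHA4 -0.04), and the list median was -0.07 against 0.00 for all genes.

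Among 22 feedback regulators of ERK, 7 fell with both inhibitors and 2 rose, against 11.0% and 4.85% of all genes. SPRED1 and SPRED2 bring neurofibromin to the membrane to switch RAS off. SPRED1 changed by -1.02 (SE 0.04, adjusted p = 1.1e-08) and SPRED2 by -1.08 (SE 0.05, adjusted p = 6.9e-08). SPRY1, a Sprouty protein, changed by -0.45, DUSP7 by -0.39 and RASA2, a GTPase-activating protein for RAS, by -0.24. The rises were TRIB1 at 0.43 and DUSP16, a phosphatase of JNK and p38, at 0.15. DUSP5, DUSP2, DUSP10 and DUSP1 passed in the pooled fit with opposite signs: DUSP1 was 0.73 with SB590885 and -0.08 with PD325901. Of 21 genes of the cascade itself, ELK4 (-0.26) and PTPN11 (-0.13) fell with both inhibitors, near the 11.0% of all genes, and none rose with both. ELK4 changed by -0.10 with SB590885 and by -0.43 with PD325901. PTPN11 did not pass when any single replicate was left out. SOS2, an exchange factor for RAS, passed with opposite signs (0.64 with SB590885 and -0.06 with PD325901), as did ELK3 (0.05 and -0.34). The inhibitors differed for 9 of the 21, and ARAF (0.00), MAP2K1 (-0.08) and MAP2K2 (0.02) did not pass.

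The largest common fall was that of CCL2, the chemokine that attracts monocytes. It read 9.07, 9.12, 9.24 and 9.38 in DMSO, 6.71, 6.75, 7.84 and 7.50 with SB590885 and 6.57, 6.57, 6.66 and 6.61 with PD325901. No inhibitor array came within reach of the DMSO arrays, and the SB590885 arrays with the R were higher than those without. The pooled change of CCL2 was -2.30 (SE 0.06, adjusted p = 1.7e-10), or 20.3% of the DMSO signal. CD48, a surface protein of the SLAM family that binds CD244 and CD2, read 11.81, 12.29, 11.47 and 11.71 in DMSO, 10.15, 10.24, 10.52 and 10.26 with SB590885 and 9.89, 10.84, 9.27 and 9.38 with PD325901. Again all inhibitor arrays were lower, with the PD325901 array of replicate 2 the highest of the 8. The pooled change was -1.75 (SE 0.05, adjusted p = 1.7e-10), and the difference between inhibitors did not pass (SB590885 minus PD325901 0.45, 95% interval -0.08 to 0.97).

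IL16 encodes a chemoattractant for CD4-positive cells. It read 9.28, 8.84, 9.24 and 9.39 in DMSO, 7.95, 8.45, 8.55 and 8.55 with SB590885 and 7.08, 7.16, 7.28 and 7.36 with PD325901. The groups did not overlap, and the pooled change was -1.39 (SE 0.08, adjusted p = 2.2e-07). Among 31 cytokines and chemokines measured, 6 fell and none rose: CCL2, IL16, TNFSF10, IL10 (-0.32, at a level below the median of all probe sets), TGFB1 (-0.18) and VEGFA (-0.13). These are 19.4% of the list, against 11.0% of all genes, and 3 passed without pairing. The list median was 0.00, and TNF (0.06), IL6 (-0.04) and CXCL8 (-0.08) were among those that did not pass. Of 21 SLAM family and lymphocyte surface genes, 7 fell with both inhibitors, against 11.0% of all genes. They were CD48, CD53 (-0.63), CD44 (-0.38), LY9 (-0.37), PTPRC (-0.29), CD47 (-0.20) and CD58 (-0.15). CD44 changed by -0.04 with SB590885 and by -0.72 with PD325901, so its shared sign rests on a small value. SLAMF7 passed with opposite signs, -0.90 with SB590885 and 0.11 with PD325901.

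**Figure D2:**
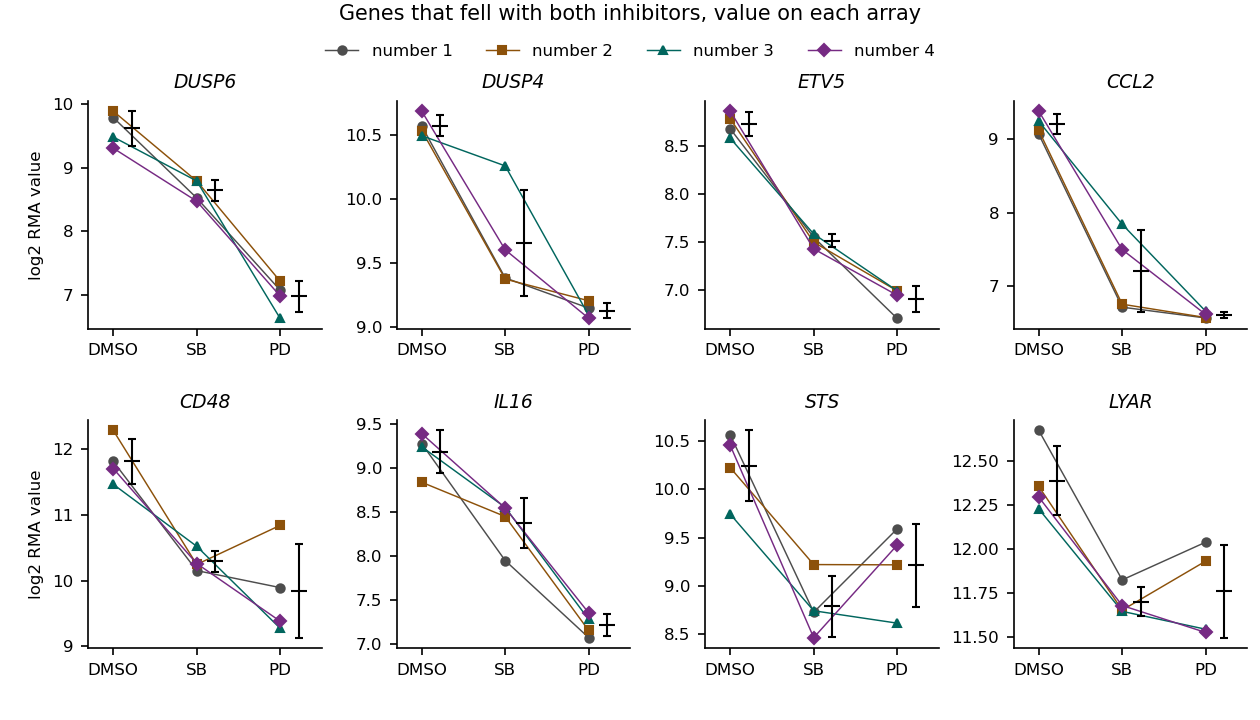
Log2 RMA values of 8 genes on each of the 12 arrays, with lines joining arrays of 1 replicate number and bars giving the mean and SD of each group (n = 4); the vertical axes differ between panels and do not start at 0. In all 8 panels the DMSO arrays lie above the inhibitor arrays, by the widest gap for CCL2, and DUSP6, ETV5 and IL16 step down again from SB590885 to PD325901.

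Other large common falls came from genes of varied function. STS, steroid sulfatase, read 10.56, 10.22, 9.74 and 10.45 in DMSO, 8.73, 9.22, 8.74 and 8.47 with SB590885 and 9.59, 9.22, 8.62 and 9.42 with PD325901. Its groups did not overlap, and the pooled change was -1.24 (SE 0.07, adjusted p = 1.8e-07). The adaptor SLA, which dampens antigen receptor signalling, changed by -1.02 (SE 0.06), and GPRIN3 by -0.93 (SE 0.04). NLGN4X, a neuroligin with a near-identical paralogue that its probes may also read, changed by -0.84 (SE 0.04). KMO, an enzyme of tryptophan breakdown, changed by -0.83 (SE 0.06), WIPF1, a partner of the actin regulator WASP, by -0.77 (SE 0.05) and UTRN, utrophin, by -0.71 (SE 0.04). These 7 had limma adjusted p-values between 5e-08 for GPRIN3 and 1.8e-06 for KMO. Without pairing, 6 of them still passed and WIPF1 did not (adjusted p = 0.103).

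Signalling and adhesion genes of lymphoid cells were also among the falls. SGK1, a kinase of the AGC family downstream of PI3K, changed by -0.85 (SE 0.05), INPP5D, the lipid phosphatase SHIP1, by -0.64 (SE 0.04), and PIK3CD, the leukocyte catalytic subunit of PI3K, by -0.37 (SE 0.04). Without pairing SGK1 and PIK3CD did not pass (adjusted p = 0.0923 and 0.122). Of 28 PI3K, AKT and mTOR components measured, 4 fell and 2 rose with both inhibitors, against 11.0% and 4.85% of all genes. In that list 21 did not pass, and the median was -0.03. PTPN6, the tyrosine phosphatase SHP-1, read 8.03, 8.10, 7.97 and 8.12 in DMSO, 7.54, 7.70, 7.69 and 7.45 with SB590885 and 7.46, 7.34, 7.31 and 7.26 with PD325901. Its groups did not overlap, and it changed by -0.59 (SE 0.05, adjusted p = 3.6e-06). Of 27 adhesion genes, 7 fell with both inhibitors and 1 rose, against 11.0% and 4.85% of all genes. The chemokine receptor CCR1 (-0.64), the integrin subunits ITGA4 (-0.51) and ITGAL (-0.43), SELPLG (-0.31), CXCR4 (-0.28) and ICAM3 (-0.24) fell besides CD44, which changed mainly with PD325901. ITGAV rose (0.32). The adhesion list's median was 0.01, near that of all genes.

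Ribosome biogenesis factors had the highest share of falls among the 38 gene lists. Of 37 measured, 31 fell and none rose, 35 had 1 sign for both inhibitors, and 30 were lower in all 8 single differences. The list median was -0.26, against 0.00 for all genes, of which 11.0% fell with both inhibitors. The shifts were modest, and the largest was that of LYAR, a nucleolar factor of pre-ribosomal RNA processing. LYAR read 12.67, 12.35, 12.23 and 12.29 in DMSO, 11.82, 11.65, 11.65 and 11.68 with SB590885 and 12.04, 11.93, 11.54 and 11.53 with PD325901. The DMSO arrays lay above all others. The pooled change was -0.66 (SE 0.04, adjusted p = 3.5e-07), or 63.4% of the DMSO signal.

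The next members, NOP16, HEATR1 and PNO1, changed by -0.44, -0.43 and -0.43 (SE 0.04 each). Subunits of RNA polymerase I and its factors fell as well: POLR1B by -0.42, POLR1C by -0.35, the initiation factor RRN3 by -0.28 and POLR1A by -0.13. Parts of the small-subunit processome (UTP20 -0.41, UTP4 -0.37, UTP15 -0.35), the assembly factors BYSL (-0.31) and NOB1 (-0.33) and the nucleolar protein NCL (-0.21) were lower too. The 6 that did not pass were NOP58 (-0.07), FBL (-0.11), NPM1 (-0.01), NHP2 (-0.02), RRP12 (-0.11) and ODC1 (-0.04). The difference between the inhibitors passed for 2 of the 37, PNO1 and POLR1B, both lower with SB590885. The falls numbered 30 on arrays without the R and 26 on those with it, 27 after quantile normalisation and 5 without pairing. MYC, whose product is known to drive many of these genes, read 12.47, 12.45, 12.22 and 12.14 in DMSO, 12.22, 12.41, 12.19 and 12.14 with SB590885 and 12.60, 12.68, 12.29 and 12.16 with PD325901. The groups overlapped, and its change of 0.02 (SE 0.04, adjusted p = 0.85) did not pass.

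Promoters of a pair of these genes are shown because the members moved together. Sequences of 250 bases before the start come from RefSeq (GRCh38.p14) and were available for 33 of the 37 genes, as 40 windows, and for 15384 of all genes tested, as 21490 windows. The ETS motif CCGGAAG, searched on both strands, was in 12 of the 40 windows (30%), in 15.5% of windows of all common falls and 14.8% of all common rises, and in 10.8% of all windows. The E-box CACGTG, a palindrome bound by MYC and related factors, was in 7 of the 40 (17.5%), and in 9.84%, 8.77% and 7.38% of the others in the same order. The AP-1 motif TGANTCA, the CRE TGACGTCA, the FOXO motif TGTTTAC and the amino acid response motif TGATGNAAT were in 1, 1, 1 and 0 of the 40 windows. A match is a run of letters and not a measured binding site. Below are the promoters of NOP16, on the minus strand at chr5:176388599-176388848, and UTP4, on the plus strand at chr16:69132399-69132648, chosen after their letters were seen. They are written 5′ to 3′ with the motif matches in capitals, and in NOP16 the matches on both strands overlap.
NOP16: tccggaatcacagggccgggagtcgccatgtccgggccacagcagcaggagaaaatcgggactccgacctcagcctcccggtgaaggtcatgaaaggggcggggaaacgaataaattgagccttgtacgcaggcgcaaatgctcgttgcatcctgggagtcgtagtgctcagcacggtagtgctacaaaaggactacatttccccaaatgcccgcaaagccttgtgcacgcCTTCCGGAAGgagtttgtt
UTP4: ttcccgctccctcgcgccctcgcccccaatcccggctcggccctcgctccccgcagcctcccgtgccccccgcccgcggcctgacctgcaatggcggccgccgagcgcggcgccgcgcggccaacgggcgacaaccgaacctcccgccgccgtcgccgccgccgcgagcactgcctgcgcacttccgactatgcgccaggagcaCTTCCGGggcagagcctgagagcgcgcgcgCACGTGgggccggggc
UTP4 holds an ETS match and, nearer the start, an E-box. Its transcript read 11.86, 11.87, 11.66 and 11.72 in DMSO, 11.20, 11.31, 11.30 and 11.36 with SB590885 and 11.73, 11.67, 11.30 and 11.41 with PD325901. NOP16 read 11.94, 11.88, 11.88 and 11.82 in DMSO, 11.11, 11.30, 11.33 and 11.36 with SB590885, and 11.86, 11.66, 11.52 and 11.35 with PD325901. In each replicate number both inhibitor arrays were below the DMSO array for either gene, and the SB590885 groups lay wholly below DMSO.

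Chaperones of the heat shock families were lower as well. Of 18 heat shock proteins and co-chaperones, 13 fell, against 11.0% of all genes, none rose, and the median was -0.25. HSPH1, an HSP70 nucleotide exchange factor, changed by -0.63 (SE 0.05, adjusted p = 2.4e-06). The HSP90 partners CHORDC1 (-0.52), FKBP4 (-0.46) and STIP1 (-0.43), the HSP40 protein DNAJA1 (-0.47) and the mitochondrial pair HSPE1 (-0.43) and HSPD1 (-0.20) also fell. For 9 of the 18 the inhibitors differed, against 14.0% of all genes, and HSPH1 was -0.93 with SB590885 and -0.34 with PD325901. Without pairing, 3 of the list passed. Proteasome subunits fell in 13 of 30, against 11.0% of all genes, by small amounts (median -0.10), from PSME3 (-0.25) to PSMA4 (-0.13). Here the count was 5 after quantile normalisation, with a median of -0.02, 7 without replicate 2, 4 with the block over 12 arrays and 0 without pairing.

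Cell cycle lists moved less and were sensitive to scaling. Of 35 DNA replication genes, 13 fell with both inhibitors, against 11.0% of all genes, with a median of -0.09. The helicase subunit MCM4 (-0.29) and the clamp loader RFC3 (-0.23) led them. After quantile normalisation, 3 were higher and 2 lower, and on the arrays without the R 3 were higher and 3 lower. Of 39 mitosis genes, 8 fell with both inhibitors, against 11.0% of all genes, among them DLGAP5 (-0.27) and TOP2A (-0.20). After quantile normalisation, however, 8 rose and 2 fell, so no direction is given for that list. Regulators of G1 showed larger shifts. CCNE1, cyclin E1, read 10.31, 10.24, 10.11 and 10.02 in DMSO, 9.69, 9.62, 9.52 and 9.75 with SB590885 and 9.48, 9.40, 9.18 and 9.02 with PD325901. Its groups did not overlap, and the change was -0.71 (SE 0.04, adjusted p = 1.4e-07). RB1 (-0.36), CDK4 (-0.18) and CDK6 (-0.13) fell as well. The D-type cyclins CCND1 (-0.08), CCND2 (0.07) and CCND3 (0.03) did not pass.

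Several inhibitors of cyclin-dependent kinases rose. CDKN1A, the p21 protein, read 8.64, 8.76, 8.68 and 8.74 in DMSO, 9.33, 9.40, 8.75 and 8.76 with SB590885 and 9.31, 9.24, 9.17 and 9.32 with PD325901. With PD325901 all 4 arrays were clearly above DMSO, whereas with SB590885 only the pair without the R was. Its pooled change of 0.45 (SE 0.06, adjusted p = 0.00016) was 0.62 in the arrays without the R and 0.28 in those with it. CDKN1C (0.52), CDKN1B (0.32) and CDKN2B (0.26) rose, and so did the atypical cyclins CCNG2 (0.75) and CCNG1 (0.16). Of the 20 G1 genes measured, 6 rose and 4 fell with both inhibitors, against 4.85% and 11.0% of all genes. Without pairing, CCNE1 was the only one of these 10 to pass (adjusted p = 0.0030).

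The strongest common rise, by the smaller of the changes, was TP53INP1, a p53 target that promotes cell death and autophagy. It read 12.04, 11.42, 11.63 and 11.92 in DMSO, 12.62, 12.69, 12.81 and 12.40 with SB590885 and 12.92, 12.45, 12.38 and 12.58 with PD325901. The inhibitor arrays were all above the DMSO arrays. The pooled change was 0.85 (SE 0.07, adjusted p = 4.5e-06), a 1.81-fold rise. SMIM14, a small membrane protein, read 7.13, 7.30, 7.27 and 7.18 in DMSO, 8.29, 8.58, 7.99 and 8.02 with SB590885 and 8.02, 8.24, 7.73 and 7.84 with PD325901. Here too the groups were apart, and the change was 0.87 (SE 0.07, adjusted p = 2.9e-06).

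JUN and JUND, subunits of the transcription factor AP-1, had larger pooled changes that leaned on SB590885. JUN read 10.60, 10.91, 10.65 and 10.12 in DMSO, 12.41, 12.46, 11.68 and 10.98 with SB590885 and 11.45, 11.45, 11.25 and 11.02 with PD325901. The inhibitor arrays all exceeded the DMSO arrays, and replicate 4 with SB590885 was the lowest of the 8. The change of JUN was 1.02 (SE 0.07, adjusted p = 4.9e-07). JUND read 9.08, 9.70, 8.95 and 9.31 in DMSO, 11.72, 11.96, 10.96 and 10.00 with SB590885 and 9.72, 10.11, 9.62 and 9.84 with PD325901. Its groups touched, since DMSO replicate 2 exceeded 1 PD325901 array, and the change was 1.23 (SE 0.11, adjusted p = 9.4e-06). A further probe set of JUND, near the lower end of the scale at a mean of 6.90, was -0.02 and did not pass. Over the 30 genes with the largest common changes, 57 of 58 other probe sets had the direction of the one used.

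Among 32 immediate early genes, 7 rose and 1 fell with both inhibitors, against 4.85% and 11.0% of all genes. Besides JUN and JUND, ATF3 (0.92), KLF6 (0.69), RHOB (0.42), PPP1R15A (0.33) and NR4A2 (0.23) rose, and SIK1 (-0.40) fell. In all 7 rises the change with SB590885 was larger and the difference between inhibitors passed; RHOB was 0.78 with SB590885 and 0.06 with PD325901. The classical early genes FOS (0.02), EGR1 (-0.13), IER2 (0.12) and JUNB (-0.01) did not pass, and the list median was 0.05. Without pairing none of the list passed, and JUN had an adjusted p of 0.095.

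Genes activated by FOXO transcription factors rose in part. Of 23 measured, 10 rose and 1 fell with both inhibitors, and the median was 0.21. Over all genes 4.85% rose, 11.0% fell and the median was 0.00. The list median was 0.28 with SB590885 and 0.05 with PD325901. The inhibitors differed for 11 of the 23, against 14.0% of all genes. BCL2L11, which encodes the BH3-only protein BIM, read 10.41, 10.33, 9.99 and 9.76 in DMSO, 11.16, 11.19, 10.51 and 10.59 with SB590885 and 10.95, 10.86, 10.32 and 10.47 with PD325901. Both inhibitor arrays exceeded the DMSO array in each replicate number, but the groups overlapped because the arrays with the R were lower throughout. The change of BCL2L11 was 0.63 (SE 0.05, adjusted p = 3e-06), at 0.67 in the arrays without the R and 0.60 in those with it, and without pairing its adjusted p was 0.144. FOXO3 itself changed by 0.54 (SE 0.04), and GADD45A by 0.45, BCL6 by 0.41, PIK3IP1 by 0.22, PINK1 by 0.21 and the ubiquitin ligase FBXO32 by 0.21. CCNG2, CDKN1B and SESN1, which stand in other lists too, make up the 10. With PD325901, BCL6 and SESN1 changed by only 0.07 each, against 0.76 and 0.34 with SB590885. The fall was TRIB2 (-0.31). The list's median was 0.22 on the arrays without the R and 0.08 on those with it, and without pairing none of its members passed.

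Of 19 BCL2 family genes, 3 rose and 1 fell, against 4.85% and 11.0% of all genes: BCL2L11, BNIP3L (0.51), BMF (0.15) and BID (-0.23). BMF did not pass with the block over 12 arrays or without replicate 2 (limma adjusted p = 0.0562 and 0.131). Nor did it pass without replicate 4 or on arrays of either R status alone. BNIP3L did not pass with robust moderation. The survival genes BCL2 (0.03), BCL2L1 (0.01) and MCL1 (0.15) did not pass. DEPTOR, an inhibitor of the mTOR kinase that is abundant in many myelomas, read 8.54, 8.13, 8.28 and 8.09 in DMSO, 8.82, 8.78, 8.54 and 8.31 with SB590885 and 9.62, 9.25, 9.12 and 9.16 with PD325901. The PD325901 arrays stood above all others, the SB590885 arrays reached into the DMSO range, and the pooled change was 0.69 (SE 0.05, adjusted p = 1.3e-06). Among 14 brakes on mTOR, SESN1 (0.21) and CASTOR2 (0.29) also passed as higher with 1 sign. Their changes were 0.34 and 0.49 with SB590885 but 0.07 and 0.09 with PD325901, so the shared sign rests on small values. SESN1 did not pass without replicate 1 or without replicate 2 (adjusted p = 0.0582 and 0.0744), and its change was 0.33 on the arrays without the R and 0.08 on those with it. Of 22 p53 target genes, 5 rose and 1 fell with both inhibitors, against 4.85% and 11.0% of all genes. TP53INP1, CDKN1A, ZMAT3 (0.34), SESN1 and CCNG1 rose and the TRAIL receptor gene TNFRSF10A (-0.45) fell, while MDM2 (-0.11) and BAX (-0.05) did not pass. The median of the p53 list was 0.01.

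Remaining large rises were ATOSA, YPEL5, PLAAT4, DAPK1, MAP1B, PAIP2B, FAM117A, ANKRD36BP2 and HSPA13. ATOSA had nearly equal changes of 0.58 with SB590885 and 0.54 with PD325901 (pooled 0.56, SE 0.04, adjusted p = 1.3e-06). YPEL5, a subunit of the CTLH ubiquitin ligase, changed by 0.71 (SE 0.05), DAPK1, a kinase linked to cell death, by 0.56 (SE 0.05) and MAP1B, a microtubule-binding protein, by 0.57 (SE 0.04). PAIP2B, a repressor of poly(A)-binding protein, changed by 0.45 (SE 0.05), and FAM117A by 0.59 (SE 0.05). PLAAT4, a phospholipid-modifying enzyme, changed by 0.74 (SE 0.05), more with PD325901 (0.95) than with SB590885 (0.52). ANKRD36BP2 (0.48) is a transcribed pseudogene whose probes may read related copies. Without pairing PLAAT4, ANKRD36BP2 and HSPA13 did not pass (adjusted p = 0.183, 0.635 and 0.458).

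**Figure D3:**
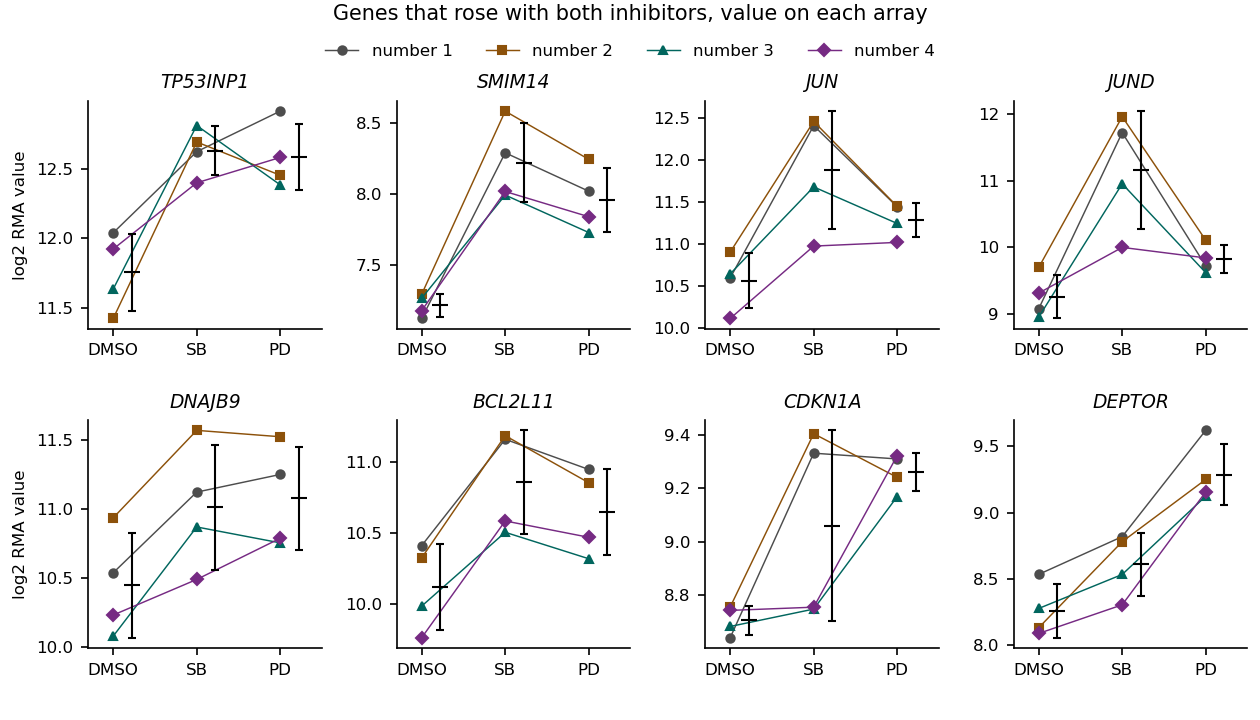
Log2 RMA values of 8 genes that rose, on each of the 12 arrays, with lines joining arrays of 1 replicate number and bars giving the mean and SD of each group (n = 4); the vertical axes differ between panels and do not start at 0. Lines rise from DMSO to both inhibitors in every panel, though for CDKN1A numbers 3 and 4 are nearly flat from DMSO to SB590885. The means of JUN and JUND peak with SB590885, while number 4 of JUN is slightly higher with PD325901. DEPTOR peaks with PD325901, and the arrays of BCL2L11 with the R (numbers 3 and 4) run below the others.

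Some genes for protein folding in the endoplasmic reticulum rose under both inhibitors, but 19 of the 30 listed had opposite signs. DNAJB9, a co-chaperone of BiP that is induced by the unfolded protein response, read 10.54, 10.94, 10.08 and 10.23 in DMSO, 11.12, 11.57, 10.87 and 10.49 with SB590885 and 11.25, 11.53, 10.76 and 10.79 with PD325901. Every inhibitor array exceeded the DMSO array of its number, while the groups overlapped because replicate 2 was high in all 3. The change was 0.60 (SE 0.05, adjusted p = 3.8e-06), the inhibitors differed by -0.07 (95% interval -0.22 to 0.09), and without pairing the adjusted p was 0.309. EIF2AK3, the stress kinase PERK (0.65), HERPUD1 (0.37) and EDEM1 (0.34), which serve the disposal of misfolded proteins, rose, as did HSPA13, a chaperone of the endoplasmic reticulum outside this list (0.42, SE 0.04). Of the 30 genes listed, 6 rose and 1 fell with both inhibitors, against 4.85% and 11.0% of all genes. The list median was -0.08 with SB590885 and 0.22 with PD325901. The inhibitors differed for 21 of the 30, against 14.0% of all genes. Besides these, 8 others passed in the pooled fit with opposite signs, such as ERN1 (1.26 with SB590885, -0.24 with PD325901) and PDIA3 (-0.30 and 0.70). HSPA5, which encodes BiP itself, did not pass (-0.01). The promoter of DNAJB9, on the plus strand at chr7:108569624-108569873 (RefSeq, GRCh38.p14), is shown because it held the most matches of the promoters inspected, an ETS motif followed by a pair of E-boxes, in capitals.
DNAJB9: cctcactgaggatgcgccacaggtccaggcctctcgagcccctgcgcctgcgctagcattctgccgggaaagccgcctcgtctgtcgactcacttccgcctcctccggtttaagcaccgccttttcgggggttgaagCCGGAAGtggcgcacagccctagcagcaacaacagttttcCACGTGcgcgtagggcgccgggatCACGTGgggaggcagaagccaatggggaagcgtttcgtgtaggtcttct
DNAJB9 rose, while UTP4, which also holds an ETS match and an E-box, fell.

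Genes of plasma cell identity moved in both directions. SDC1, the surface proteoglycan CD138 that marks plasma cells, read 10.68, 10.95, 10.57 and 10.79 in DMSO, 10.23, 10.33, 10.05 and 10.20 with SB590885 and 10.44, 10.68, 10.03 and 10.19 with PD325901. It was lower in all 8 differences, the groups overlapped at 1 PD325901 array, and the change was -0.48 (SE 0.04, adjusted p = 1e-05). FCRL5 (-0.56), LAX1 (-0.36) and CADM1 (-0.15) also fell, and PIM2 (0.44), DERL3 (0.20) and PRDM1 (0.14) rose. Without replicate 2, DERL3 and PRDM1 did not pass (adjusted p = 0.117 and 0.193), nor did they with the block over 12 arrays (0.111 and 0.112), while PIM2 passed in both. Of the 24 measured, IRF4 (-0.03), JCHAIN (0.02) and CD38 (-0.26) were among those that did not pass, and the list median was 0.00. PAX5, a B cell factor that plasma cells normally silence, changed by -0.37 (SE 0.05, adjusted p = 0.00018). It lay above the median of all probe sets on all 12 arrays, but so did HBB and COL1A1, and detection was not tested. In the interleukin-6 pathway PTPN6 fell, while SOCS2 (0.22), PIAS3 (0.14), BCL6 and PIM2 rose. BCL6 and PIM2 each changed by only 0.07 with PD325901, against 0.76 and 0.81 with SB590885. STAT3 (0.02), JAK1 (0.11) and the receptor subunit IL6ST (0.13) did not pass. Among MYC partners, MXD1 (0.41), MXI1 (0.25) and MXD3 (0.25), which compete with MYC for MAX, rose, and MAX (-0.21) and MLX (-0.20) fell.

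Enzymes of energy metabolism changed in a few places. HK2, the inducible hexokinase, read 11.16, 11.08, 10.82 and 10.91 in DMSO, 10.10, 10.25, 10.37 and 10.11 with SB590885 and 10.80, 10.74, 10.37 and 10.41 with PD325901. Its groups did not overlap, and the change was -0.60 (SE 0.04, adjusted p = 1.8e-06). The phosphofructokinases PFKP (-0.33) and PFKM (-0.28) and the glucose transporter SLC2A3 (-0.49) fell too. In all, 7 of the 29 glycolysis and hypoxia genes fell, against 11.0% of all genes. ELOVL6, a fatty acid elongase, changed by -0.74 (SE 0.04, adjusted p = 2.2e-07), while the sterol regulators SREBF1 (0.30) and SREBF2 (0.19) rose. SREBF2 was 0.29 with SB590885 and 0.08 with PD325901, and it did not pass on the arrays with the R. Of 23 cholesterol and fatty acid synthesis genes, 4 rose and 2 fell with both inhibitors, against 4.85% and 11.0% of all genes. In the pooled fit 9 were higher and 2 lower on the arrays without the R, and 1 and 5 on those with it. Of 27 lysosome and autophagy genes, 6 rose and 1 fell with both inhibitors, against 4.85% and 11.0% of all genes. The largest rises were SQSTM1 (0.48) and NEU1 (0.26). The list's 8 pooled rises, those of opposite signs included, became 4 without replicate 2, 2 on the arrays with the R and 0 without pairing. Of 26 oxidative phosphorylation genes 4 fell (15.4%, against 11.0% of all genes), the lowest value being that of NDUFA9 (-0.18), and the count was 0 after quantile normalisation and on the arrays without the R, and 1 with the block over 12 arrays. No gene of the 26 restricted to other tissues passed, nor any of 11 monocyte, 10 fibroblast, 7 erythroid and 10 endothelial markers. Of 20 T and NK cell markers, 3 fell, against 11.0% of all genes: TRAT1 (-0.55), LAT (-0.34) and CD8A (-0.18). CD3G and NKG7 lay below the median of all probe sets on all 12 arrays, and CD3D and CD3E lay above it on 6 arrays each.

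**Figure D4:**
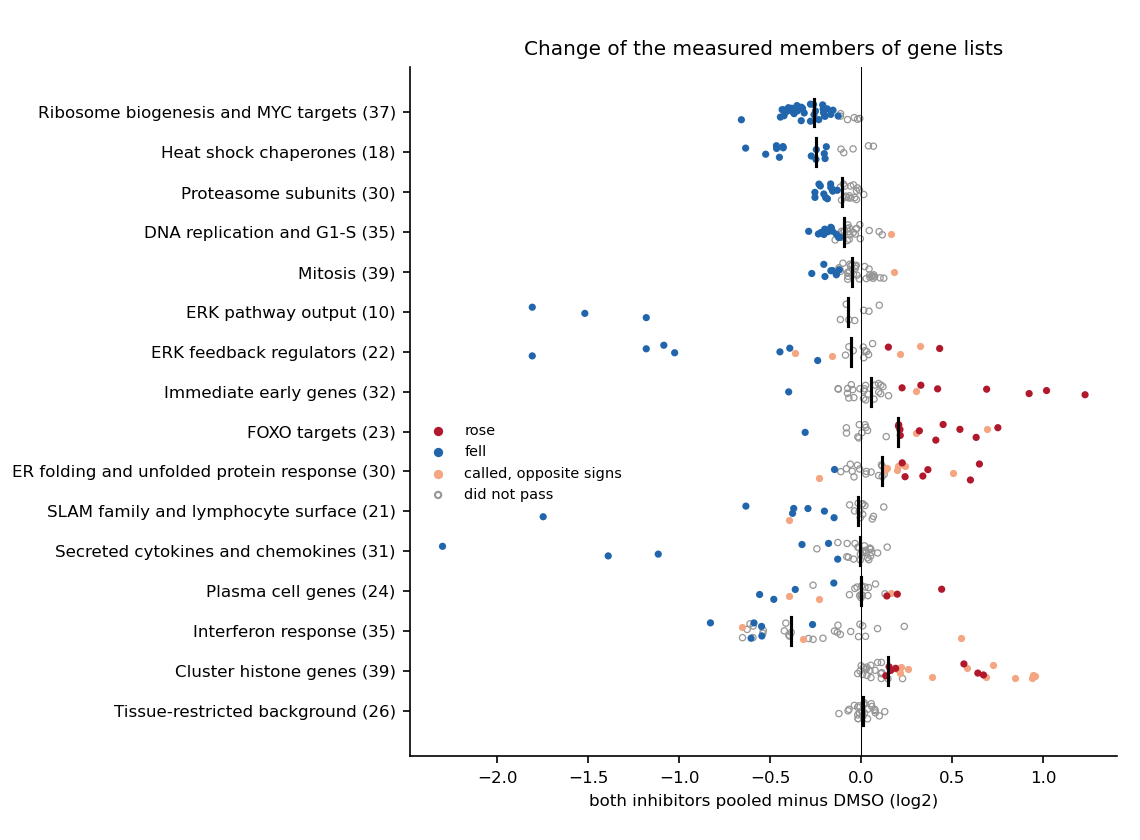
Pooled log2 change of each measured member of 16 gene lists (number of members in parentheses), with a black bar at each list's median. Filled blue and red points fell or rose with both inhibitors, orange points passed with opposite signs and open points did not pass; the ribosome biogenesis and heat shock lists lie almost wholly left of 0, the FOXO targets lie mostly right of it, and the histone list holds many orange points.

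Some lists held many genes that passed in the pooled fit with opposite signs. Of 39 cluster histone genes 19 passed as higher, against 6.06% of all genes, but only 7 had 1 sign, against 4.85%. The inhibitors differed for 22 of the 39, against 14.0% of all genes. H2BC12 changed by 2.16 with SB590885 and by -0.25 with PD325901. Genes of the ATF4 and amino acid response behaved likewise, and 13 of 32 had 1 sign. Of the 32, 6 rose and 2 fell with both inhibitors, against 4.85% and 11.0% of all genes. SESN2 was 1.02 with SB590885 and -0.02 with PD325901. SLC7A11, the cystine transporter, was higher in all 8 differences (1.01 with SB590885, 0.22 with PD325901). NF-κB genes passed as higher in 8 of 26, against 6.06% of all genes. Of these 8, BIRC2 (0.18), RELB (0.33) and NFKBIZ (0.51) had 1 sign.

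The size of the response was tested between the inhibitors without the DMSO arrays. SB590885 and PD325901 differed for 868 of the 3131 common genes at an adjusted p of 0.05, compared with 14.0% of all genes. SB590885 had the larger change in 654 of them, 367 rises and 287 falls, and PD325901 in 214, 45 rises and 169 falls. Some ERK output and feedback genes changed more with PD325901, although the change with SB590885 was the larger in 11 of the 22 feedback regulators. DUSP6 changed by -0.97 with SB590885 and by -2.64 with PD325901 on the log2 scale (difference 1.67, 95% interval 1.44 to 1.91, adjusted p = 3.8e-05). SPRED2 was -0.34 and -1.83, SPRED1 -0.56 and -1.49, ETV5 -1.21 and -1.82, and IL16 -0.81 and -1.97, in the order SB590885 and PD325901. DEPTOR leaned the same way at 0.35 and 1.03.

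On the SB590885 side were JUND (1.90 and 0.56), the linker histone H1-10 (1.64 and 0.26), H2BC5 (1.28 and 0.01) and the cysteine-forming enzyme CTH (1.42 and 0.04). Falls that were larger with SB590885 included TRAT1, a T cell receptor adaptor (-1.06 and -0.04), TEX19 (-1.03 and -0.33), SAMD9 (-0.93 and -0.16), the integrin ITGA4 (-0.85 and -0.16) and the phospholipase PLA2G4A (-0.77 and -0.07). SAMD9 is an interferon response gene, and its difference was widest in replicate 2. There it read 10.72 in DMSO, 10.59 with PD325901 and 8.82 with SB590885, against 8.90, 8.69 and 8.67 in replicate 3. For CTH, H2BC5, TRAT1 and PLA2G4A the change with PD325901 was under 0.1, and for these the shared sign rests on a small value. Where the difference did not pass, its interval was narrow for some genes and wide for others. NLGN4X differed by 0.02 (95% interval -0.10 to 0.14), ATOSA by 0.04 (-0.06 to 0.14), LYAR by -0.06 (-0.23 to 0.11), UTRN by 0.08 (-0.07 to 0.24) and TP53INP1 by 0.05 (-0.19 to 0.29). Wide intervals were those of TNFSF10 (-1.18 to 0.41), OAS1 (-1.09 to 0.72) and STS (-0.80 to -0.05). For such genes a difference that did not pass does not mean equal changes. These intervals cover the 4 arrays of each inhibitor at doses that are not given.

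**Figure D5:**
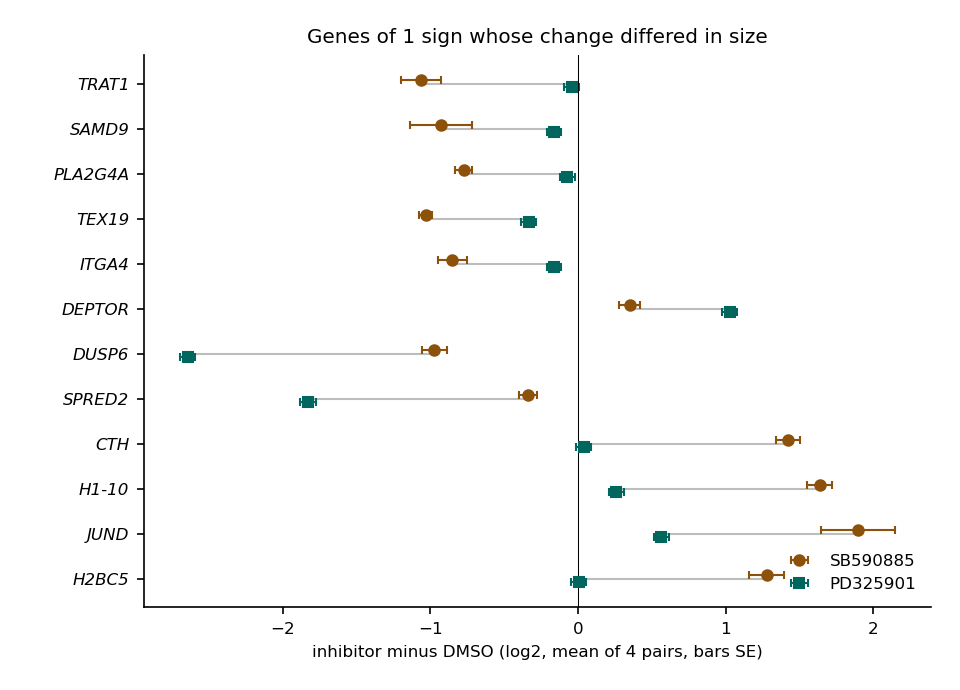
Mean log2 change against DMSO with SB590885 (brown circles) and PD325901 (green squares) for the 12 genes of 1 sign with the largest differences between inhibitors, 6 in each direction; bars are limma's moderated SE (n = 4 pairs). DUSP6 and SPRED2 extend farther with PD325901 on the left, DEPTOR farther with it on the right, and the other 9 genes move mainly with SB590885. The difference of SAMD9 was widest in replicate 2.

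The interferon response genes were read with and without replicate 2. Of 35 measured, 6 fell with both inhibitors, against 11.0% of all genes, and none rose with both. The list median was -0.38. Without replicate 2 the median was -0.01, and 6 genes were higher and 7 lower in the pooled fit. The 6 higher ones were IFIT3 (0.55), IFIT2 (0.51), ISG20 (0.49), ISG15 (0.44), IRF7 (0.28) and IFI6 (0.24), of which only IFIT2 had passed with all replicates, with opposite signs for the inhibitors. OAS1, an antiviral enzyme that senses double-stranded RNA, read 8.54, 11.44, 8.60 and 8.94 in DMSO, 8.15, 8.82, 8.52 and 8.35 with SB590885 and 7.73, 11.09, 7.69 and 8.07 with PD325901. Replicate 2 was high in DMSO and PD325901 and not with SB590885. The pooled change of OAS1 was -0.83 (SE 0.11, adjusted p = 0.00021) and -0.61 without replicate 2 (adjusted p = 6.7e-07), and it did not pass without pairing (adjusted p = 0.841). TNFSF10, the death ligand TRAIL, followed the same pattern at 8.80, 12.09, 8.54 and 8.60 in DMSO, 8.08, 8.66, 8.24 and 7.82 with SB590885 and 7.95, 10.84, 7.64 and 7.92 with PD325901. Its change was -1.12 (SE 0.20, adjusted p = 0.0015) with all replicates and -0.71 without replicate 2 (adjusted p = 7.4e-08), and without pairing its adjusted p was 0.743. The 4 paired differences were -0.79, -2.34, -0.60 and -0.73 for TNFSF10 and -0.60, -1.48, -0.49 and -0.73 for OAS1. For both genes the moderated SE understates this scatter. Both genes were below DMSO in all 8 differences. HERC5, OAS2 and SAMD9 changed by -0.60, -0.59 and -0.55 with all replicates and by -0.44, -0.34 and -0.39 without replicate 2.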

How the data were processed

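The authors deposited log2 values of 12 arrays, made with RMA in R 3.0.1 per the submitters' processing notes. No other setting is named in these notes. Of 54675 probe sets, 62 controls were left out; 41091 carried 1 gene symbol, 1801 several and 11721 none in the platform annotation. Of several probe sets for 1 of the 19775 genes, the one brightest on average over 12 arrays was used. Differences within each replicate number, pooled or between inhibitors, were tested with limma 3.58.1 in R 4.3.3 (intercept only, eBayes without trend, Benjamini-Hochberg over all genes, adjusted p under 0.05, two-sided), and the code was tested on simulated data. The replicate numbers come from the labels, and every same-number pair of arrays correlated (r = 0.544 to 0.913), so the pairing was kept. Those values include the shared R status. Within 1 R status, r for SB590885 and the other groups was 0.07 to 0.21. Genes named were the 15 rises and 15 falls with the largest smaller change of the inhibitors among genes called in the same direction in all 8 differences and with a higher group mean at or above the median of all probe sets; up to 4 of each list by p; ERK output genes, MYC, ARAF, MAP2K1 and MAP2K2; and 6 in each direction by the difference between inhibitors; others named from the lists were chosen after their values were seen. Members and lists were chosen with earlier results of these data known. Promoters and their coordinates are from RefSeq (GRCh38.p14), searched for 6 motifs on both strands. The number of arrays limits precision. Alternatives were no pairing, a fit of all 12 arrays with the number as block, each replicate left out, other scalings and other probe set rules.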

Additional observations from a re-analysis of the deposited data

Results flagged for a closer look

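In groups of 4 values, 42 were examined for a value far from the other 3, judged by its gap to the nearest over the whole range against Dixon's 95% critical value, which chance exceeds in about 1 in 20 groups. The paired difference of TNFSF10 in replicate 2 stood apart (0.890), and so did 1 of the 4 paired differences of UTRN (0.918). The interferon gene median of replicate 2 stood apart in DMSO (0.925), with SB590885 (0.864) and with PD325901 (0.887).

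For 12 genes of 1 sign the size of the change differed between the inhibitors by limma's test of the difference. SB590885 minus PD325901 was 1.67 for DUSP6, 1.49 for SPRED2, 1.38 for CTH, 1.38 for H1-10, 1.34 for JUND and 1.27 for H2BC5. It was -1.02 for TRAT1, -0.77 for SAMD9, -0.70 for PLA2G4A, -0.70 for TEX19, -0.69 for ITGA4 and -0.68 for DEPTOR. They were the 6 largest differences in each direction. That of SAMD9, an interferon response gene, was widest in replicate 2.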

How the results depend on the processing

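Counts below are of genes past an adjusted p of 0.05 in limma. Without the replicate block 206 genes passed (44 higher and 162 lower; 35 and 162 of 1 sign), and the inhibitors differed for 53; the block over all 12 arrays called 2633 genes. Leaving out 1 replicate gave 2630 to 3199 genes, 718 to 1310 higher and 1741 to 1991 lower, 570 to 1107 higher and 1656 to 1914 lower of 1 sign, and 460 to 704 that differed between inhibitors. The lowest of the higher counts (718 and 570) and of the differing ones (460) came without replicate 1, and 536 differed without replicate 2. With the R status as a term 1305 genes differed between the inhibitors. Arrays without the R gave 1416 lower genes of 1 sign and 1416 that differed, and arrays with it 521 higher genes, 442 of 1 sign, and 511 that differed. Quantile normalisation gave 1554 higher genes of 1 sign. Testing every probe set, which are more numerous than genes, gave 6616 calls (2301 higher, 4315 lower; 1896 and 4131 of 1 sign) and 1522 that differed. The cause of the other shifts was not tested. Of 138 named genes that passed, 48 passed without the block, 126 with the block over 12 arrays, 132 to 134 without 1 replicate, 127 after quantile normalisation and 131 with robust moderation, and none changed direction under any alternative run. TNFSF10 and OAS1 did not pass with robust moderation (adjusted p = 0.208 and 0.118), nor did OAS1 with the block over 12 arrays (0.0932).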
